A study of Mus musculus with 12 samples.

Results

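A set of 8 X-linked genes of pluripotency and development was examined for 2 silencing-associated histone marks in female mouse cells with and without SmcHD1. They were taken by name from the deposited table: Nr0b1, Eras, Tfe3, Zfx, Trap1a, Sox3, Pou3f4 and Esx1, 8 of 952 genes listed. Chromatin immunoprecipitation and sequencing (ChIP-seq) of H3K9me3 and H3K27me3 had been done in epiblast stem cells (EpiSCs), a primed pluripotent cell from embryonic day 6.5, and in embryonic fibroblasts (MEFs) from E13.5 embryos. Cells labelled WT were Smchd1 +/+ and cells labelled MD1 were Smchd1 MD1/MD1, homozygous for a loss-of-function allele of Smchd1. All groups were female, came from C57BL6/J crossed with a JF1 x C57BL6/J F1, and were heterozygous for the Xist deltaA deletion, which removes the silencing repeat of Xist and so leaves the other X as the inactive one. Each of the 8 combinations of mark, genotype and cell type was 1 library, beside 4 input libraries, so no value has a replicate. How many embryos or lines lie behind a library is not stated in the labels, and with histone marks alone the labelled cell types could not be checked by expressed markers.

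In female mammals 1 of the X chromosomes is silenced through the non-coding RNA Xist, and its chromatin then gains H3K27me3, the mark of the Polycomb repressive complexes, and in places H3K9me3, the mark of heterochromatin. SmcHD1 is a chromosomal protein of the SMC family that accumulates on the inactive X and is needed to keep many of its genes silent. The genes examined fall into groups by role. Nr0b1 (the orphan nuclear receptor DAX1), Eras (a Ras family GTPase of embryonic stem cells), Tfe3 (a basic helix-loop-helix transcription factor whose removal from the nucleus accompanies exit from naive pluripotency) and Zfx (a zinc finger transcription factor needed for stem cell self-renewal) are known from stem cells. Trap1a encodes the tumour antigen P1A, which is expressed in placenta and tumours. Sox3 (an HMG-box factor of neural progenitors), Pou3f4 (a POU-domain factor of the nervous system and inner ear) and Esx1 (a homeobox factor of the placenta) are lineage regulators.

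Promoter sequences are given for the genes whose H3K27me3 differed at least 2-fold between WT and MD1 MEFs, lower in Zfx and Tfe3 and higher in Eras and Esx1. Each is the 250 bases before the transcription start, 5′ to 3′ on the gene's strand, from RefSeq on GRCm38.p6, with CpG dinucleotides (CG) in capitals. For each, the length from this start to the far end of the gene equals the length of the deposited gene model.
Zfx (chrX:94123408-94123657, minus strand): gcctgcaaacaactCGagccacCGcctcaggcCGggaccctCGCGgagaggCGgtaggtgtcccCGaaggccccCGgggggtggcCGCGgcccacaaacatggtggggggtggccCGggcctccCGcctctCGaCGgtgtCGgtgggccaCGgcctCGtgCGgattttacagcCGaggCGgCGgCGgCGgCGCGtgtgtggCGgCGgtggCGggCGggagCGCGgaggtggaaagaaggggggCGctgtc
Tfe3 (chrX:7762411-7762660, plus strand): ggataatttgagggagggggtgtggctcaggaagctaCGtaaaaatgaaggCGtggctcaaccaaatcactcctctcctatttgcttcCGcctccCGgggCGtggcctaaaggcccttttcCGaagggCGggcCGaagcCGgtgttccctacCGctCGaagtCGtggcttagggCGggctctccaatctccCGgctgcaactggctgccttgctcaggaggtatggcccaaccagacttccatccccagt
Eras (chrX:7928608-7928857, minus strand): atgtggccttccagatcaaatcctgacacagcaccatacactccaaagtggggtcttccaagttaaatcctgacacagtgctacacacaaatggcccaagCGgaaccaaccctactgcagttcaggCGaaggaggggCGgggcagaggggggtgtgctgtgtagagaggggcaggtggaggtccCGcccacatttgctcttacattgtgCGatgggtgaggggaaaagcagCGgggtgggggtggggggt
Esx1 (chrX:137120327-137120576, minus strand): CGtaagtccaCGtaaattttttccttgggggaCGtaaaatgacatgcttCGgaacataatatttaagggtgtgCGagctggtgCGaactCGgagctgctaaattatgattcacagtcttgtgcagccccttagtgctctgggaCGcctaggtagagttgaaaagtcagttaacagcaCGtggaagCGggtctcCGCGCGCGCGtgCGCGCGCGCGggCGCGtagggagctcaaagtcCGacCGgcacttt

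CpG counts of these windows were 32 in Zfx and 14 in Tfe3, the pair with less H3K27me3, and 6 in Eras and 24 in Esx1, the pair with more. Whether CpG content goes with the direction of the change was not tested. Over 1223 promoter windows of the same length on the X the median was 5 CpGs, and 89.0% held at least 1. The Zfx window held more CpGs than 98.5% of them and the Eras window more than 52.7%. RefSeq lists another start for Zfx, whose window holds 2 CpGs, and for Tfe3, whose window holds 6, and these do not give the deposited gene length. Of the 8 genes, 7 had an entry in the RefSeq promoter table. The enrichment values cover whole genes, so they do not say where in a gene a mark lay.

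Values are log2 enrichment per gene as deposited, read as the ratio of ChIP to the matching input, so gene length cancels. Each library also carries 1 constant of unstated origin, so whether 0 is the true level of the input is not known. Here "2-fold over input" means a deposited value of at least 1. A value can therefore be compared between genes of the same library directly, while a difference between libraries is best read beside the median of all X-linked genes in that comparison. The counting intervals (95%) printed in brackets come from whole-number pairs of ChIP and input recovered from the values. They cover counting error only, and measure no spread between cultures. The smallest input pairs of the 8 genes were 4, in Sox3 and Pou3f4, and the largest was 499, in Zfx in MD1 MEFs, so Zfx is known far more precisely than the others. Median input pairs over all genes ran from 78 to 129.5 per library, and the median ChIP pair of H3K9me3 in MD1 EpiSCs was only 13.

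All values were present for 6 of the 8 genes. Sox3 (X, 58144541 to 58146605 in mm9, minus strand) had values in WT MEFs alone, and Pou3f4 (X, 108009804 to 108010889, plus strand) in MD1 MEFs alone, so neither gives a difference between genotypes or cell types. The deposited models of these genes were also the shortest, 2065 and 1086 bases. The other 6 were Nr0b1 (83437114 to 83441283, plus strand), Eras (7501402 to 7505733, minus), Tfe3 (7339787 to 7352328, plus), Zfx (91319970 to 91368746, minus), Trap1a (135868222 to 135872704, plus) and Esx1 (133649936 to 133654865, minus). Eras overlaps the opposite-strand gene Pcsk1n by 135 bases, and all 4483 bases of Trap1a lie inside the opposite-strand gene C330013F16Rik. ChIP reads carry no strand, so reads of shared sequence cannot be told apart between such partners.

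**Figure D1:**
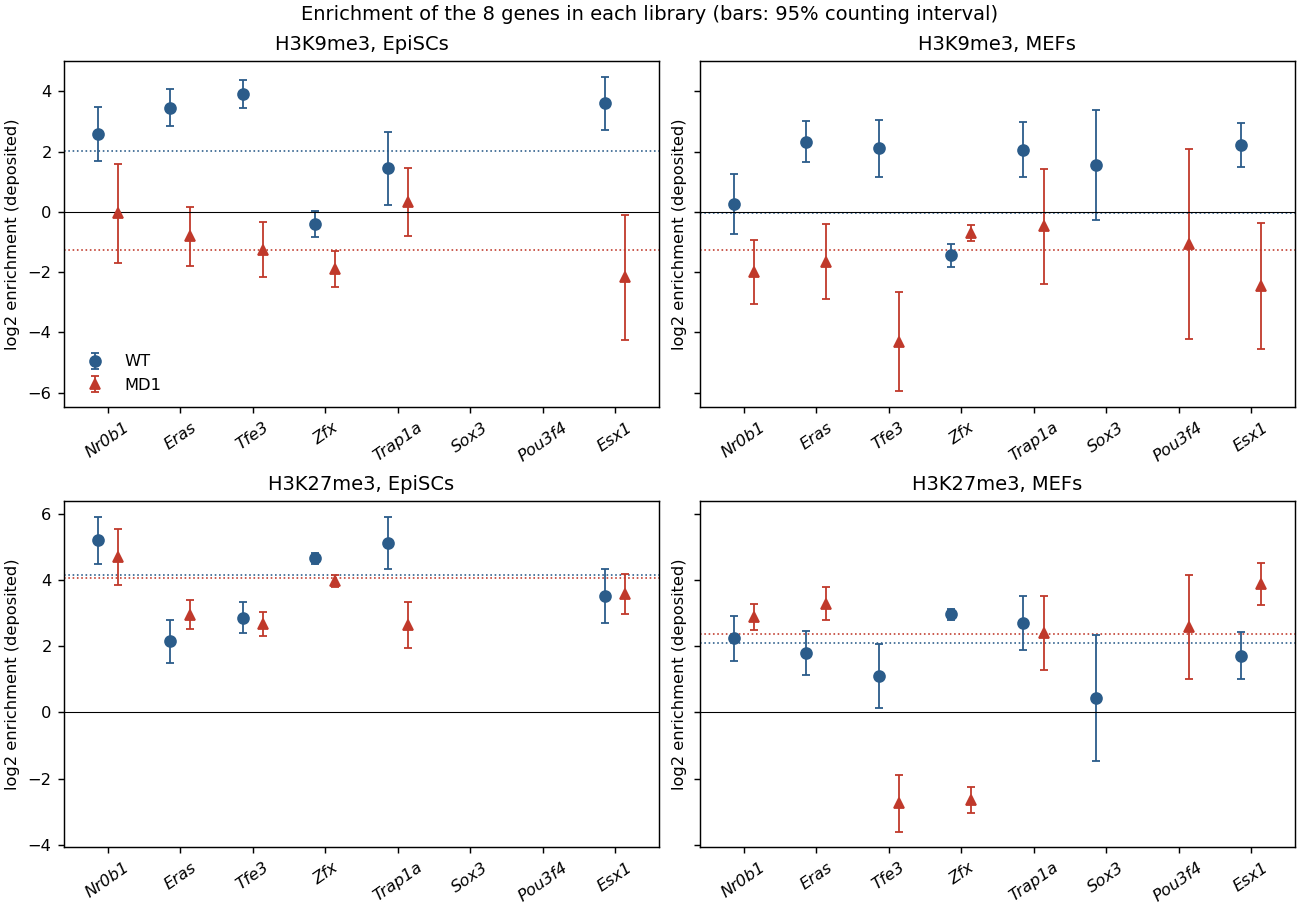
Log2 enrichment (y axis) of each gene (x axis) for H3K9me3 (top) and H3K27me3 (bottom) in EpiSCs (left) and MEFs (right). Circles are WT and triangles MD1, each 1 library, with bars for the 95% counting interval. Dotted lines mark each library's median over all X-linked genes with a value in that library. Zfx lies below 0 in every H3K9me3 library, and Tfe3 and Zfx lie below −2 in H3K27me3 of MD1 MEFs.

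As deposited, H3K9me3 was at least 2-fold over input in most of these genes in WT cells and in none of those measured in MD1 cells. In WT EpiSCs, Tfe3 had 3.91, Esx1 3.60, Eras 3.46, Nr0b1 2.58, Trap1a 1.45 and Zfx −0.40, so 5 of 6 were at least 2-fold over input, beside 64.0% of all genes. In WT MEFs, Eras had 2.33, Esx1 2.21, Tfe3 2.12, Trap1a 2.06, Sox3 1.54, Nr0b1 0.27 and Zfx −1.44. There 5 of 7 were at least 2-fold over input, where 20.3% of all genes were. The counting interval of Sox3, −0.28 to 3.37, included 0. Of the values that stood high in WT MEFs, those of Eras, Esx1, Tfe3 and Trap1a were each above those of at least 95.7% of the genes measured. In MD1 cells none of the genes measured reached 2-fold over input, in EpiSCs (0 of 6, beside 5.3% of all genes) or in MEFs (0 of 7, beside 2.92%).

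Among the stem cell genes, Tfe3 had the lowest H3K9me3 changes, although in EpiSCs its change was not apart from that of Eras by counting error (difference −0.89, −2.43 to 0.66). In EpiSCs it had 3.91 in WT and −1.25 in MD1, a change of −5.16 (−6.18 to −4.13). In MEFs it had 2.12 in WT and −4.30 in MD1, a change of −6.42 (−8.32 to −4.51). The MEF value rested on an MD1 ChIP pair of 3 over an input pair of 113, and only 1 of 739 genes had a larger decrease there. Eras was also lower in both cell types, with 3.46 in WT against −0.81 in MD1 EpiSCs, a change of −4.27 (−5.43 to −3.11). In MEFs it had 2.33 against −1.65, a change of −3.98 (−5.40 to −2.56). For both genes the WT and MD1 counting intervals lay far apart in each cell type.

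Nr0b1 differed less than Tfe3 and Eras, though against Eras not beyond counting error. The change in Eras minus that in Nr0b1 was −1.64 (−3.83 to 0.55) in EpiSCs and −1.72 (−3.75 to 0.32) in MEFs. H3K9me3 at Nr0b1 in EpiSCs changed by −2.63 (−4.49 to −0.77), near the median change of all 708 genes, −2.98. It was 2.58 in WT and −0.049 in MD1 EpiSCs. In MEFs it was 0.27 in WT and −1.996 in MD1, a change of −2.26 (−3.72 to −0.80), with 21.1% of the genes lower still.

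In WT cells Zfx stood apart as the only gene of the set with H3K9me3 below 0, although its EpiSC interval reached 0.028. In MD1 cells 5 of 6 genes in EpiSCs and 7 of 7 in MEFs were below 0, Zfx among them. Zfx had −0.40 in WT and −1.90 in MD1 EpiSCs, a change of −1.49 (−2.23 to −0.75). In MEFs the direction was the opposite, from −1.44 in WT to −0.71 in MD1, a change of 0.74 (0.28 to 1.19), larger than that of 98.5% of genes. Both MEF values were below 0. Relative to the median of all genes, however, Zfx was higher in MD1 in both cell types, by 1.81 and 1.90.

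Of the others, Esx1 had 3.60 in WT and −2.16 in MD1 EpiSCs, a change of −5.76 (−8.02 to −3.51). In MEFs it had 2.21 and −2.46, a change of −4.67 (−6.89 to −2.45). Both MD1 values rested on a ChIP pair of 2. Trap1a was 1.45 in WT and 0.31 in MD1 EpiSCs, and the interval of its change, −2.79 to 0.52, included 0. In MEFs it had 2.06 and −0.48, a change of −2.54 (−4.66 to −0.42), on an MD1 ChIP pair of 3. Pou3f4 had −1.07 in MD1 MEFs on a ChIP pair of 1.

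At least 2-fold lower H3K9me3 in MD1 was thus found in 6 of 6 genes in EpiSCs, where 82.9% of 708 genes were called lower and 1.13% higher, and in 5 of 6 in MEFs, where 51.3% of 739 were called lower and 0.677% higher. The EpiSC share is close to that of all genes. The median change of the 6 genes was −3.45 in EpiSCs, against −2.98 over all genes, and −3.26 in MEFs, against −1.02. When each library was centred on its median over all genes, which moved H3K9me3 changes by 3.30 in EpiSCs and 1.17 in MEFs, EpiSC calls became 2 lower (Tfe3 and Esx1) and 2 higher (Zfx and Trap1a), and MEF calls 5 lower and 1 higher (Zfx). With 1 constant per library, the part of a change that all genes share cannot be told apart from the scaling.

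**Figure D2:**
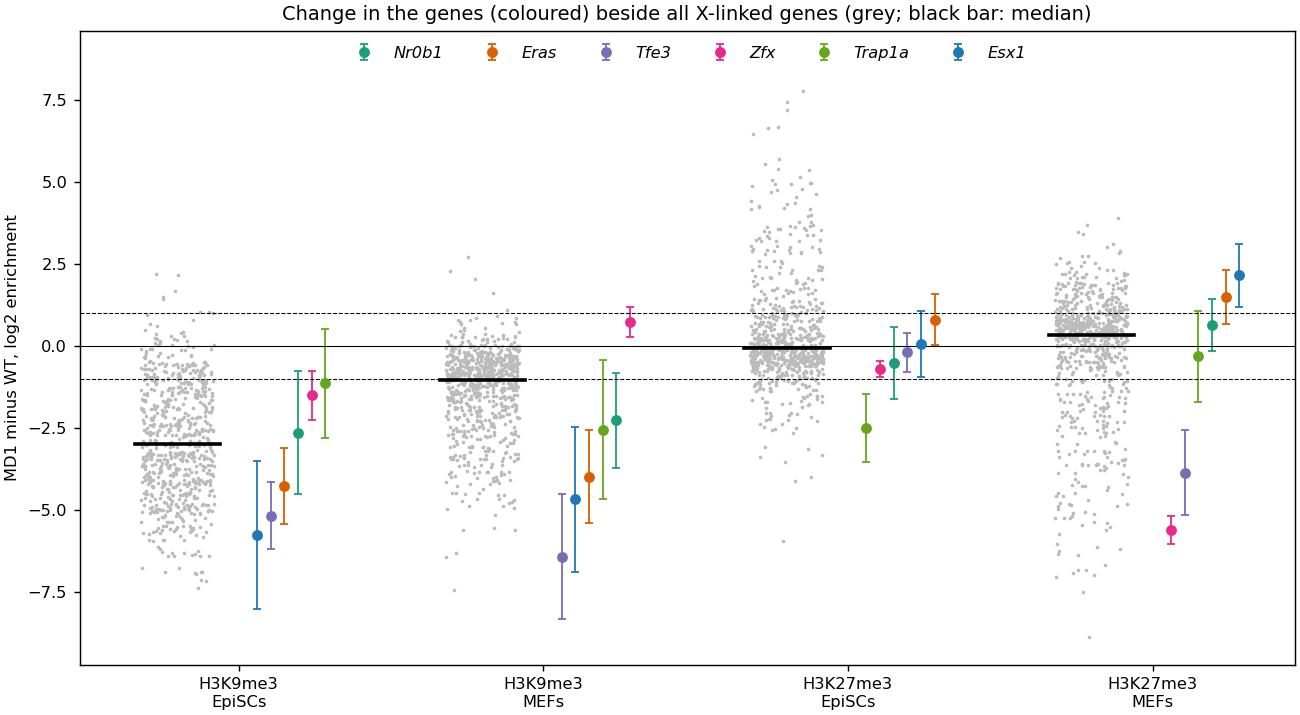
Change in log2 enrichment, MD1 minus WT (y axis), for each mark and cell type (x axis). Grey points are all X-linked genes with a value in both genotypes, black bars their median, and coloured points the 6 genes with their 95% counting interval; dashed lines mark 2-fold. Tfe3 and Zfx lie at −3.85 and −5.60 for H3K27me3 in MEFs, while Eras and Esx1 lie at 1.50 and 2.16.

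In EpiSCs H3K27me3 lay at least 2-fold over input on 6 of 6 measured genes in WT (87.1% of all genes) and on 6 of 6 in MD1 (96.1%), and Trap1a alone differed 2-fold between genotypes. The WT values were 5.21 in Nr0b1, 5.13 in Trap1a, 4.66 in Zfx, 3.52 in Esx1, 2.86 in Tfe3 and 2.15 in Eras. Nr0b1 and Trap1a lay above 98.2% and 97.8% of all genes. In MD1 EpiSCs Trap1a had 2.64, a change of −2.49 (−3.54 to −1.45), lower than all but 11 of 708 genes. The other changes were under 2-fold: Zfx had 3.97 in MD1, a change of −0.69 (−0.95 to −0.44), and Eras 2.95, a change of 0.80 (0.028 to 1.58). Nr0b1 (4.70 in MD1), Tfe3 (2.67) and Esx1 (3.58) had changes whose intervals included 0. At least 2-fold lower values were found in 1 of 6 genes, beside 11.3% of all genes, and higher values in 0 of 6, beside 22.7%.

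In MEFs H3K27me3 differed in opposite directions. It lay at least 2-fold over input on 6 of 7 genes in WT (80.9% of all genes) and on 5 of 7 in MD1 (75.1%). Zfx had 2.96 in WT and −2.64 in MD1, a change of −5.60 (−6.03 to −5.18). Tfe3 had 1.11 and −2.74, a change of −3.85 (−5.14 to −2.56). Both were thus above 0 in WT and below 0 in MD1 on the deposited scale. Esx1 had 1.72 and 3.88, a change of 2.16 (1.20 to 3.12), and its MD1 value was above that of 99.2% of genes. Eras, whose end is shared with Pcsk1n, had 1.79 and 3.29, a change of 1.50 (0.67 to 2.33). Nr0b1 (2.24 in WT, 2.88 in MD1) and Trap1a (2.71 and 2.40) changed by 0.64 and −0.31, with intervals that included 0. Sox3 had 0.43 in WT MEFs, with an interval that included 0 (−1.47 to 2.33), and Pou3f4 had 2.58 in MD1 MEFs (1.01 to 4.15).

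The counts in MEFs were 2 of 6 genes lower and 2 of 6 higher, beside 24.0% and 22.3% of 739 genes, so the counts alone do not set these genes apart. Centring left the counts as they were. Differences between genes in the same pair of libraries do not depend on the constants. The change in Tfe3 was lower than that in Eras (difference −5.36, −6.89 to −3.82), and the change in Zfx lay below that of Tfe3 (difference −1.75, −3.11 to −0.39). Of the 15 pairs of genes, 12 had changes in MEF H3K27me3 that differed beyond counting error, against 7 of 15 in EpiSCs. For H3K9me3 the number was 8 of 15 in each cell type.

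The H3K27me3 changes of several genes also differed in size between the cell types. The MEF change minus the EpiSC change was −4.91 in Zfx (−5.40 to −4.41) and −3.66 in Tfe3 (−5.08 to −2.24), but 2.18 in Trap1a (0.44 to 3.92) and 2.10 in Esx1 (0.70 to 3.50), against a median of −0.0025 over 698 genes. Each rests on 4 libraries without replicates, and no test between samples was possible. For H3K9me3 the median over all genes was 1.57. The interval of Zfx (2.23, 1.36 to 3.10) excluded 0 but included this median, whereas those of Tfe3 (−1.26, −3.42 to 0.91) and Trap1a (−1.40, −4.09 to 1.29) included 0 and lay below the median.

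**Figure D3:**
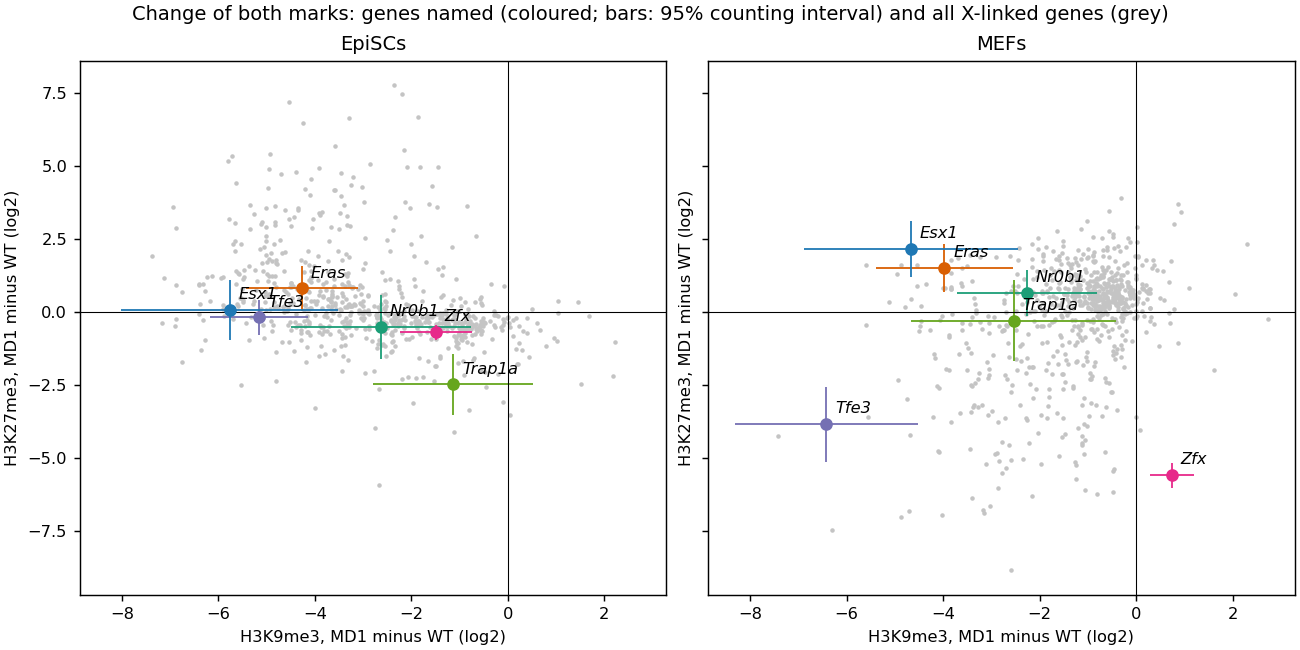
Change of H3K9me3 (x axis) against change of H3K27me3 (y axis), both MD1 minus WT in log2, in EpiSCs (left) and MEFs (right). Grey points are all X-linked genes and coloured points the 6 genes with 95% counting intervals. In MEFs Tfe3 is lower in both marks (−6.42 and −3.85), Esx1 and Eras are lower in H3K9me3 and higher in H3K27me3, and Zfx is lower in H3K27me3 alone.

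The difference of the marks in the same cells, H3K9me3 minus H3K27me3, was 1.31 in Eras, 1.04 in Tfe3 and −5.06 in Zfx in WT EpiSCs, with 82.2%, 79.0% and 15.2% of all genes below these values. In MD1 MEFs Zfx had a difference of 1.93 (1.50 to 2.37), above that of 99.5% of genes, while Esx1 had −6.34 (−8.35 to −4.33), below all but 1.46% of genes. The 2 marks share 1 input and differ in their constants, so the sign of such a difference has no meaning of its own and only the place among genes does.

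Between the cell types, WT values of both marks were mostly higher in EpiSCs, as over the X as a whole. H3K9me3 was at least 2-fold higher in EpiSCs in 5 of 6 genes and lower in 0, beside 68.2% and 3.52% of 711 genes, and H3K27me3 was higher in 5 of 6 and lower in 0, beside 78.2% and 6.47%. The median differences of the 6 genes were 1.26 for H3K9me3 and 1.78 for H3K27me3, against 1.90 and 1.88 over all genes. Relative to the library medians, which shifts these differences by 2.13 and 2.07, H3K9me3 calls became 0 higher and 3 lower in EpiSCs (Eras, Zfx and Trap1a), and H3K27me3 calls 0 higher and 1 lower (Eras). Trap1a was the gene with more H3K9me3 in WT MEFs as deposited, 2.06 against 1.45, though its interval for the difference, −2.13 to 0.91, included 0. Nr0b1 had the largest H3K27me3 difference, 2.97 (1.99 to 3.95), higher than in 95.9% of genes.

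The order of the genes was resolved in part only. In WT EpiSC H3K9me3 just 1 of 5 neighbouring steps, Trap1a above Zfx, exceeded counting error, and in WT MEFs 1 of 6, Nr0b1 above Zfx. No step was resolved in either MD1 library of H3K9me3. For H3K27me3 the step from Zfx to Esx1 in WT EpiSCs (1.14, 0.30 to 1.98) and the step from Trap1a to Zfx in MD1 MEFs (5.04, 3.84 to 6.23) were resolved, and none in WT MEFs or MD1 EpiSCs. The span of the 6 genes in H3K27me3 was 1.85 in WT MEFs and 6.62 in MD1 MEFs.

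**Figure D4:**
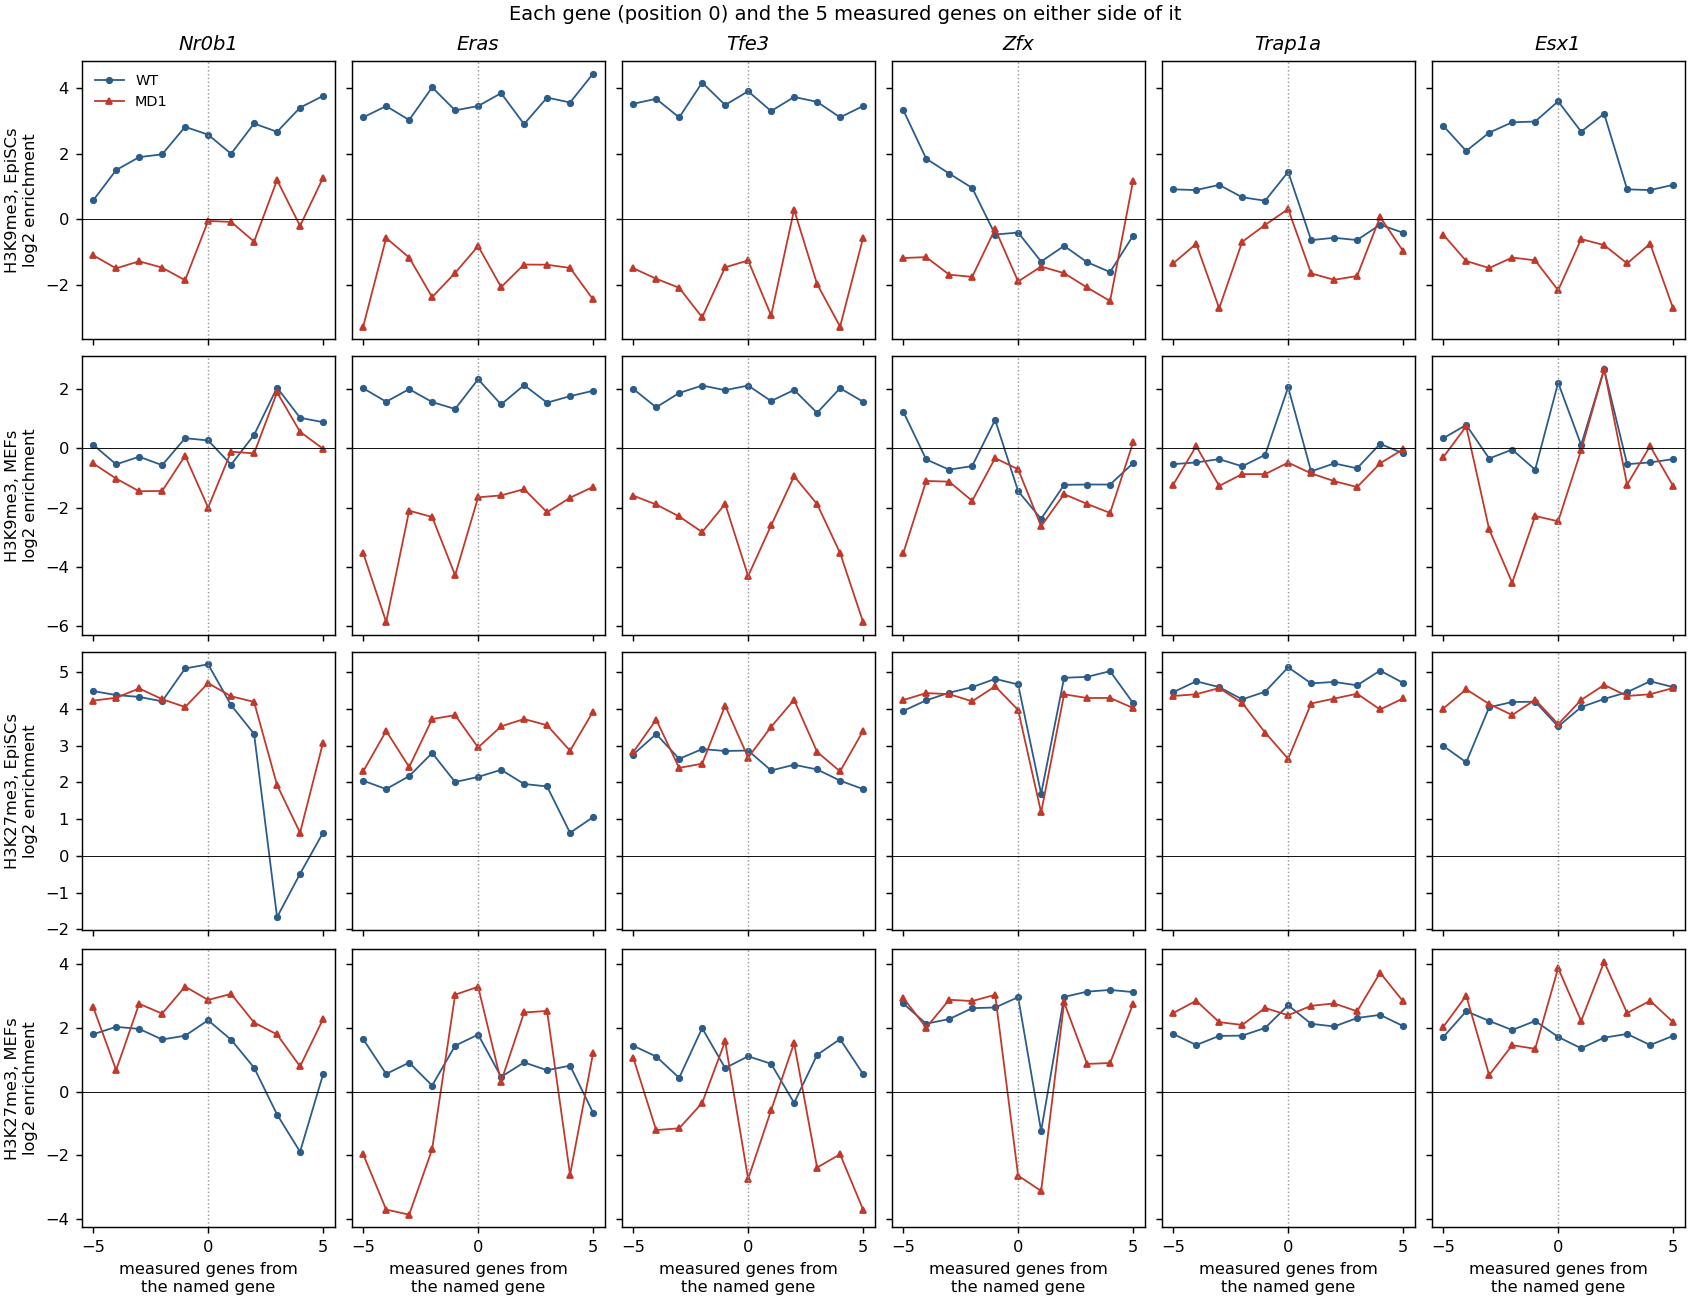
Log2 enrichment (y axis) of the 6 genes, each at position 0, and of the 5 genes with complete values on either side (x axis, in gene order along the chromosome, not in bases), for each mark and cell type by row. Circles are WT and triangles MD1, 1 library each. H3K27me3 at Zfx in MD1 MEFs drops to −2.64, with Eif2s3x beside it at −3.12, while H3K9me3 around Tfe3 and Eras is high over all neighbours in WT.

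Each member was set beside the nearest genes with complete values in gene order, which for some members lay far away. Tfe3 and Eras lie 149073 bases apart in the same H3K9me3-rich stretch, and all 10 neighbours of each were at least 2-fold lower in H3K9me3 in MD1 in both cell types as deposited, and stayed lower in both after centring, though not all by 2-fold. H3K27me3 in MEFs was mixed within this stretch. Of the 7 measured genes between them, 6 were at least 2-fold lower and 1 (Kcnd1, a potassium channel gene) higher. Of the genes nearest to Eras, Timm17b, a mitochondrial import gene, changed by −1.999 and the histone deacetylase gene Hdac6 by −0.15. The overlapping Pcsk1n changed by 1.60 and Gata1, an erythroid transcription factor gene, by 1.57, with an interval that included 0 (−0.23 to 3.37). The H3K27me3 ChIP pair of Gata1 was 7 in WT MEFs, against 434 in MD1 MEFs and 192 in WT EpiSCs. The 7 may be a reduced fraction of larger counts, so this interval may be too wide. Beside Tfe3, Praf2 changed by −2.35 and Gripap1 by −1.46, whereas Ccdc120 changed by 0.84 and Kcnd1 by 1.88. Relative to the library medians these MEF changes are 0.28 lower, which turns no direction among the genes named around Tfe3 and Eras.

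Zfx had a larger decrease of H3K27me3 in MEFs than any of its 10 neighbours, whose changes ran from −2.30 to 0.61 with a median of −0.15. Next to it on 1 side, the translation factor gene Eif2s3x changed by −1.88, from a WT value already under 0, and beyond that Klhl15 by −0.17. On the other side AU015836 changed by 0.40 and Pdk3, a pyruvate dehydrogenase kinase gene, by 0.22, a difference that turns negative after centring. In H3K9me3 of MEFs the 0.74 of Zfx lay just above the highest of the neighbours, Gm14827 at 0.70. In WT EpiSCs the H3K9me3 of Zfx, −0.40, was close to the neighbour median of −0.48 (neighbours from −1.61 to 3.34). In WT MEFs Zfx had −1.44, below the neighbour median of −0.66 (neighbours from −2.38 to 1.24).

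Trap1a and Esx1 differed from their surroundings in WT MEFs. Trap1a had H3K9me3 of 2.06 there while its 10 neighbours lay between −0.78 and 0.15, although C330013F16Rik, which contains it, had −0.22. In H3K27me3 of EpiSCs Trap1a changed by −2.49, against −1.11 to −0.025 in the neighbours, where −1.11 was C330013F16Rik. The next gene, D330045A20Rik, changed by −0.55, while Mum1l1 and Rnf128 changed by −0.098 and −0.45, the first of which is at 0 to 2 decimals after centring. Esx1 had H3K9me3 of 2.21 in WT MEFs against a neighbour median of −0.19, while the next gene on 1 side, Il1rapl2, had 0.11 and the testis gene Tex13a beyond it, 1087838 bases from Esx1, had 2.66. H3K9me3 at Tex13a in MEFs changed by 0.013 and at Esx1 by −4.67. In H3K27me3 of MEFs both were higher in MD1, by 2.38 and 2.16, and Il1rapl2 by 0.86, whereas Fam199x and Zcchc18, on the other side of Esx1, changed by −0.88 and −0.48.

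Around Nr0b1 H3K9me3 in MEFs changed by −1.16 to 0.44 in the 10 neighbours, less than the −2.26 of Nr0b1 itself; the nearest, Samt3 and Gm41, changed by −0.59 and 0.44, and that of Samt3 turns positive after centring while that of Nr0b1 does not. In WT EpiSCs the neighbours of Nr0b1 had a median H3K9me3 of 2.34, close to its own 2.58. These neighbours lay 144461 to 5922934 bases from Nr0b1. The neighbours of Sox3 and Pou3f4 had values where these genes had none. They lay 222947 to 1390068 bases from Sox3 and 439308 to 1927568 bases from Pou3f4. Around Sox3 they had median WT EpiSC values of 3.04 in H3K9me3 and 3.31 in H3K27me3, and around Pou3f4 of 3.74 and −0.15. H3K27me3 in EpiSCs was at least 2-fold higher in MD1 in all 10 neighbours of Pou3f4 (median change 3.20, from 1.52 to 4.64), beside 22.7% of all genes. The neighbours include the kinase gene Rps6ka6 and the homeobox gene Hdx.

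Other X-linked regulators, listed by function, were read in the same way. Of 17 listed genes of sequence-specific transcription factors, 13 of 15 with values were at least 2-fold lower in H3K9me3 in MD1 EpiSCs and 13 of 16 in MD1 MEFs, with 0 higher, beside 82.9% and 51.3% of all genes lower. The list's medians were −4.49 and −1.89, against −2.98 and −1.02 over all genes. After centring the counts were 8 lower and 3 higher in EpiSCs and 8 lower and 0 higher in MEFs. The changes ran from −6.89 in Nkrf, a repressor of NF-kappa-B targets (on an MD1 ChIP pair of 2), to 0.19 in Cdx4, a caudal homeobox gene, in EpiSCs. In MEFs the change closest to 0 was −0.39 in Klf8, positive after centring. In H3K27me3, 2 of 15 were lower and 4 higher (5 higher after centring) in EpiSCs, beside 11.3% and 22.7% of all genes. There Cdx4 changed by −1.79 and Tbx22, a T-box gene of palate development, by 3.01. In MEFs 4 of 16 were lower and 5 higher (2 higher after centring), beside 24.0% and 22.3% of all genes, with Zbtb33, which encodes the methyl-CpG binding factor Kaiso, at −5.16 and Zfp711 at 1.61.

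Of 15 listed genes of development, placenta and signalling, 12 of 14 with values were lower in H3K9me3 in MD1 EpiSCs and 7 of 15 in MD1 MEFs, with 0 higher, shares close to the 82.9% and 51.3% of all genes. The list's medians were −2.18 and −0.76, against −2.98 and −1.02. After centring EpiSC calls became 2 lower and 9 higher, and MEF calls 3 lower and 1 higher. The gene with the largest decrease in both cell types was Porcn, which encodes the acyltransferase that modifies Wnt proteins, with −5.71 (−7.01 to −4.40) and −4.54 (−5.57 to −3.50). In MEFs the next gene of the list had −4.46 (−6.20 to −2.72), an interval that covered the value of Porcn. In H3K27me3, 0 of 14 were lower and 2 higher in EpiSCs (all genes: 11.3% and 22.7%), namely Porcn at 5.36 and Klhl13, a ubiquitin ligase adaptor gene, at 3.55. In MEFs, where 24.0% of all genes were lower and 22.3% higher, 3 of 15 were lower (4 after centring), among them Phf6 at −2.65 and the placental gene Plac1 at −1.69. Another 2 were higher, Klhl13 at 1.83 and Porcn at 1.62.

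The gene most like each member over the 8 libraries was found by Euclidean distance among the 698 genes with complete values, as a description with no test. Eras was closest to Gata1 (distance 1.67, against a median of 5.11 to all genes), which lies 30652 bases from it. Zfx was closest to Med14, a Mediator subunit gene (1.48, median 6.11), whose H3K27me3 was 2.71 in WT and −2.67 in MD1 MEFs and whose H3K9me3 was below 0 throughout. Tfe3 was closest to Uba1, the ubiquitin-activating enzyme gene (2.22, median 7.43), with MEF H3K27me3 of 1.16 and −3.65. Esx1 was closest to Sowahd (1.995, median 5.10), Nr0b1 to 1700008I05Rik (1.72, median 3.90) and Trap1a to Rnf138rt1 (2.10, median 4.59). Among the members themselves Eras and Esx1 were nearest to each other (2.27), with only 5 genes closer to Eras and 4 closer to Esx1.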

How the data were processed

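H3K9me3 and H3K27me3 were measured by ChIP-seq in 8 libraries with 4 inputs, 1 library per group. The submitters' processing notes name cutadapt, BWA, SAMtools and the build mm9. Their versions, the counting rule, any coverage minimum and which X the reads came from are not stated there. Per X-linked gene, the deposited value is a log2 enrichment made by the authors. Each value was written as a whole-number ChIP pair over an input pair, times 1 constant per library (denominator at most 30000, relative tolerance 1e-12, 100% of values matched), after the procedure was tested on simulated data. They are the smallest pairs that give each value, so the reads behind them may be multiples, and the common input of the 2 marks was imposed. Counting intervals (95%) use a normal approximation on the log2 scale and are approximate for small pairs.

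Deposited starts count from 0 and were printed counting from 1. Changes were MD1 minus WT, or EpiSC minus MEF, called at 2-fold. With 1 library per group no test or p-value was computed. The genes and lists were chosen with earlier results of these data known. Named genes were the 8 members, the 2 genes with complete values on either side of each, the 1 gene nearest to each by Euclidean distance, and up to the 2 lowest and 2 highest of each list per comparison (1 such gene is not reported here); other genes, the promoter set and window, and the interval between Tfe3 and Eras were chosen after values were seen. Alternatives were a pseudocount of 0.1 on the linear scale, centring, a 3-fold threshold and input pairs of at least 20. Analyses used Python 3.11.15, numpy 2.4.6 and pandas 2.3.3.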

Additional observations from a re-analysis of the deposited data

Results flagged for a closer look

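Differences in opposite directions between the cell types as deposited were found in Zfx and Nr0b1, each with 1 library per group, so the contrast between the cell types was not tested over samples. H3K9me3 at Zfx was lower in MD1 EpiSCs (−1.49) and higher in MD1 MEFs (0.74), a difference of 2.23. After centring on all genes both changes were positive, 1.81 and 1.90. H3K27me3 at Nr0b1 was lower in MD1 EpiSCs (−0.51) and higher in MD1 MEFs (0.64), a difference of 1.15 with a counting interval of −0.20 to 2.503, and kept these signs after centring. Centring gave opposite directions to the H3K9me3 changes of Nr0b1 (0.67 in EpiSCs, −1.10 in MEFs) and Trap1a (2.17 and −1.37).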

How the results depend on the processing

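Centring each library on its median over all genes gave the following counts of members. MD1 against WT EpiSC H3K9me3 had 2 lower and 2 higher, in place of 6 and 0, and MEF H3K9me3 had 1 higher, in place of 0. WT EpiSCs against WT MEFs had 3 lower and 0 higher for H3K9me3, in place of 0 and 5, and 1 lower and 0 higher for H3K27me3, in place of 0 and 5. It reversed the EpiSC H3K9me3 changes of Nr0b1 (0.67), Zfx (1.81) and Trap1a (2.17). It also reversed the WT differences between cell types in H3K9me3 of Eras (−1.001), Tfe3 (−0.34), Zfx (−1.09) and Esx1 (−0.74). In H3K27me3 it reversed those of Eras (−1.72), Tfe3 (−0.32), Zfx (−0.37) and Esx1 (−0.27). Centring on genes under 2-fold H3K9me3 in WT left 4 members lower in MD1 EpiSC H3K9me3, in place of 6. It gave 1 higher in MEF H3K9me3 (Zfx, 1.72) and 1 higher in EpiSC H3K27me3 (Eras, 1.27). The EpiSC H3K9me3 change of Trap1a was reversed to 0.052 and the EpiSC H3K27me3 change of Tfe3 to 0.27. A 3-fold threshold left 4 genes lower in MD1 EpiSC H3K9me3, 2 higher in WT EpiSC H3K9me3 and 1 higher in MD1 MEF H3K27me3 (Esx1). Input pairs of at least 20 kept 3 genes in the EpiSC genotype comparisons, 4 in the MEF ones and 2 between cell types, so counts fell with the genes: 3 lower in H3K9me3 in EpiSCs and 3 in MEFs, 0 lower in EpiSC H3K27me3, 1 lower in MEF H3K27me3, and 2 higher in H3K9me3 and 1 in H3K27me3 between WT cell types. Asking for a counting interval that excludes 0, an alternative chosen after seeing the data, left every count within 1.5 times. With a pseudocount of 0.1 no call count moved by over 1.5 times and 35 of 36 single changes stayed inside their counting interval; Zfx in MEF H3K27me3 became −4.92. No paired analysis was possible because each group holds 1 library. Small pairs limit Sox3, Pou3f4, Esx1, Trap1a and Nr0b1 most.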
